A study of Mus musculus with 60 samples.

Results

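Krt1 and Krt10, the keratin pair of the suprabasal epidermis, were examined in 60 skin carcinomas from 55 mice. The members were taken as every probe set with Krt1 or Krt10 as its single gene symbol, which gave 1 probe set for each gene, or 2 genes of the 18194 measured by the array. All mice were FVBBX, offspring of a [SPRET/Ei X FVB/N] hybrid crossed back to FVB/N, so the share of Mus spretus alleles differed from animal to animal. Tumors in every group had been induced on back skin with the carcinogen dimethyl benzanthracene (DMBA) and the promoting agent tetradecanoyl-phorbol acetate (TPA), and none of the arrays used here holds untreated skin. By the histology label there were squamous cell carcinomas (SCCs) from 35 mice, of which 13 were well, 13 moderately and 9 poorly differentiated, spindle carcinomas from 13 mice, and carcinomas with no histology given from 7 mice. The labels also gave p53 mutation, lymph node status and papilloma number. Where a mouse gave more than 1 tumor the log2 values were averaged, so n counts mice. Because the samples are bulk tumor RNA, fewer cells of a type and less RNA per cell cannot be told apart.

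Keratins form intermediate filaments as obligate pairs of a type II and a type I chain. Keratinocytes of the basal layer make Krt5 (type II) and Krt14 (type I). On leaving that layer they switch to Krt1 (type II) and Krt10 (type I), and this switch is the classical sign that terminal differentiation has started. Spinous cells then become granular cells, which make loricrin, filaggrin-family proteins and the late cornified envelope (LCE) proteins that are cross-linked into the surface barrier. Spindle carcinomas are skin tumors in which epithelial shape and markers are largely lost.

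Krt1 (gene 16678) lies at chr15:101845426-101850786 and Krt10 (gene 16661) at chr11:99385254-99397449 in the GRCm38.p6 assembly, inside the type II and type I keratin clusters respectively, and both are protein-coding. Neither probe set was shared with another gene. The deposited values were log2 intensities normalised by RMA, with array medians from 4.431 to 4.558. Krt10 was above the array median on 60 of 60 arrays. Krt1 was above it on 51, and the 9 arrays at or below it fell in every class: 2 well, 2 moderate and 1 poor SCC, 2 spindle carcinomas and 2 carcinomas without histology. Probe set levels are not comparable between genes, so Krt1 and Krt10 are compared below only through how each differed between mice.

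The 250 bases upstream of the RefSeq transcription start are shown for Krt10, for the genes whose expression was most like that of Krt1 and of Krt10, Lce1c (a late cornified envelope protein) and Lor (loricrin, the main protein of the cornified envelope), and for Hrnr (hornerin, a filaggrin-family protein), which was among the 10 most like each and is shown for its TATA box. Krt1 had no entry in the promoter table. For Krt10 the stretch lies inside the gene span given above, so the start used is not the outer end of that span. Each sequence is written from 5′ to 3′ on the gene's own strand, and capitals mark matches, on either strand, to TATAAA (the TATA box), TGANTCA (the AP-1 site) and TTNNGNAA (the C/EBP site).
Krt10, chr11:99389365-99389614, minus strand: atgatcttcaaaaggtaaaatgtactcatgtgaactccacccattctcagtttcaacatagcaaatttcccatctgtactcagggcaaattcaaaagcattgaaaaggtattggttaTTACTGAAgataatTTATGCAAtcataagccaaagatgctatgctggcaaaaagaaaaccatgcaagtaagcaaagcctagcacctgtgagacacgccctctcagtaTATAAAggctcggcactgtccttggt
Lce1c, chr3:92678997-92679246, plus strand: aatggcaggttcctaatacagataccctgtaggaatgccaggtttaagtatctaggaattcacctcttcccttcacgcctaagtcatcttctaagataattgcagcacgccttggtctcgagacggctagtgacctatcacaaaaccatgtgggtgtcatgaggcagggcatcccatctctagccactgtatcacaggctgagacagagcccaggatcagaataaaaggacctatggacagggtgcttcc
Lor, chr3:92083143-92083392, minus strand: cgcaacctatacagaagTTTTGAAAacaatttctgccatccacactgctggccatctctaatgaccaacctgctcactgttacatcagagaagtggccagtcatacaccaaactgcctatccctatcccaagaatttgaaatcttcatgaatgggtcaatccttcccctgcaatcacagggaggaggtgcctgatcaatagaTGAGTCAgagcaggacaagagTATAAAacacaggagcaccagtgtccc
Hrnr, chr3:93319499-93319748, plus strand: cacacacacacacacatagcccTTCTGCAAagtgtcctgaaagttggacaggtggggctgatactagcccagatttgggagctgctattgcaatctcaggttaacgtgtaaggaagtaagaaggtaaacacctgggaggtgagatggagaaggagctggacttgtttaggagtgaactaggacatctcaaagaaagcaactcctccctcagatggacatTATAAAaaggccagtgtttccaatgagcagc
Counted from the transcription start, the TATA box began at -26 in Krt10, at -27 in Lor and at -31 in Hrnr, and Lce1c held none of the 3 motifs. Among all 32851 promoters searched, 12.4% held this motif. Krt10 held 2 C/EBP matches, 1 of them on the opposite strand, and Lor and Hrnr held 1 each, against 36.8% of all promoters with at least 1. An AP-1 match was found in Lor, from -48, and in 6.75% of all promoters. Of the 15 genes most like Krt1 or Krt10 (given below), 11 had a promoter in the table, and 2 of these (Lor and Hrnr) held the TATA box, 1 the AP-1 match and 6 a C/EBP match. None of the 3 motifs overlapped another in the sequences shown. These matches are descriptions of letters and not of occupied sites.

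Some arrays stood apart from their labels. On 12 arrays the level of Xist and of 3 Y-linked genes went against the labelled sex in SCCs, spindle carcinomas and tumors without histology, among them SCC 24 and SCC 38, which held the lowest and the highest Krt10 of the well differentiated SCCs. With each gene centered on its mean, SCC 24 correlated with spindle 14 (r = 0.787) and spindle 13 (r = 0.670), although labelled a well differentiated SCC. In addition, SCC 21 and SCC 22, from different mice, were nearly identical (r = 0.889, SD of their log2 differences over genes 0.339). SCC 18 and no histology 3 had a similarly small SD (0.333), but r was only 0.719. Their Krt1 was 9.38 and 8.40 and their Krt10 10.00 and 9.25. SCC 21 with SCC 22, and SCC 18 with no histology 3, are called near-identical below. The values below include all arrays, and those that rest on these arrays are also given without them.

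The levels of both keratins spanned a wide range within every class of tumor. In well differentiated SCCs Krt1 ran from 3.05 (SCC 15) through a median of 9.38 to 11.93 (the mouse of SCC 17), with a mean of 8.62 ± 2.93 (SD, n = 13). In moderately differentiated SCCs it ran from 3.91 through 8.09 to 10.64, with a mean of 7.70 ± 2.24 (n = 13). In poorly differentiated SCCs it ran from 3.76 through 6.06 to 10.19, with a mean of 6.82 ± 2.42 (n = 9). The order of the means therefore followed the grade, but the lowest well differentiated tumor lay under every poorly differentiated one. In spindle carcinomas Krt1 ran from 3.63 (spindle 14) through 9.27 to 10.95 (spindle 5), with a mean of 8.49 ± 2.25 (n = 13). In tumors without histology it ran from 3.67 through 7.81 to 11.71, with a mean of 7.08 ± 2.80 (n = 7). All 5 ranges overlapped.

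Krt10 showed the same order of grades. In well differentiated SCCs it ran from 5.88 (SCC 24) through 10.0 to 12.44 (SCC 38), with a mean of 10.00 ± 2.05 (SD, n = 13). In moderately differentiated SCCs it ran from 5.89 through 8.47 to 11.21, with a mean of 8.79 ± 1.93 (n = 13). In poorly differentiated SCCs it ran from 5.77 through 6.89 to 10.62, with a mean of 7.72 ± 1.86 (n = 9). Here too the ranges overlapped, although 7 of 9 poorly differentiated tumors lay under the well differentiated median. In spindle carcinomas Krt10 ran from 5.44 (spindle 14) through 9.61 to 11.68 (spindle 5), with a mean of 9.13 ± 1.88 (n = 13), and in tumors without histology from 5.55 through 7.36 to 11.45, with a mean of 7.95 ± 2.06 (n = 7). The mouse with the lowest and the mouse with the highest level among spindle carcinomas were thus the same for Krt1 and Krt10.

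**Figure D1:**
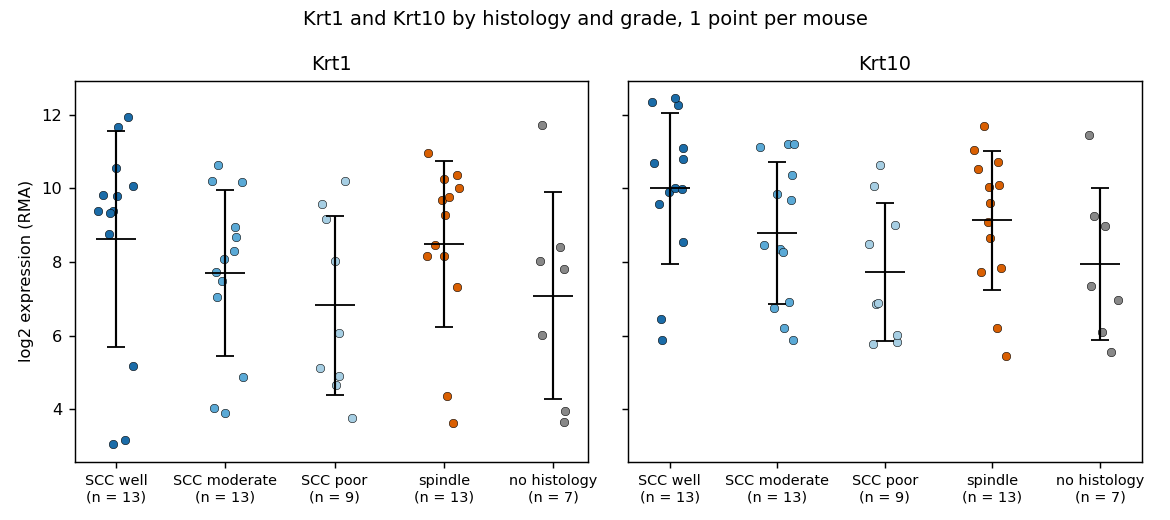
Log2 expression (RMA) of Krt1 and Krt10 by histology and grade, with 1 point per mouse, the horizontal bar at the mean and whiskers of 1 SD. Both keratins had their highest SCC mean in well differentiated tumors (8.62 and 10.00) and their lowest in poorly differentiated ones (6.82 and 7.72), the spindle means were 8.49 and 9.13, and all classes overlapped.

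The first comparison asked whether the pair differed between spindle carcinomas and SCCs. Neither gene passed the test. Krt1 was 8.49 in 13 spindle mice and 7.82 ± 2.59 in 35 SCC mice, a difference of 0.67 (SE 0.79, 95% interval -0.91 to 2.26, limma adjusted p = 0.569), and 7 of 13 spindle mice lay above the SCC median. Krt10 was 9.13 and 8.97 ± 2.11, a difference of 0.16 (SE 0.65, interval -1.14 to 1.47, limma adjusted p = 0.884), again with 7 of 13 above the SCC median. Of all 12791 genes tested in this comparison 26.5% passed, 1985 higher and 1406 lower in spindle carcinomas, with a median difference of 0.02. Both values moved with the setting. With every tumor kept and mouse as a random effect they were 0.38 for Krt1 and -0.035 for Krt10, with the tumor_class label as a covariate 0.33 and -0.10, and with origin as a covariate 0.43 and 0.07, none of which passed.

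Many other keratins were lower in spindle carcinomas, but others, like Krt1 and Krt10, did not pass. Krt12, Krt20, Krt27, Krt72 and Krt73, which lie near Krt1 or Krt10 in the keratin clusters, were not called. They were above the array median on 10 to 16 arrays. All 4 stress keratins, which injured and hyperproliferative epidermis turns on, fell: Krt16 (-2.58), Krt17 (-2.49), Krt6b (-2.12) and Krt6a (-2.08). Both mucosal keratins fell, Krt13 (-4.17) and Krt4 (-3.17). Of the simple-epithelial keratins, Krt19 (-3.07) and Krt7 (-2.72) fell, whereas Krt8 rose by 1.60 and Krt18 differed by 0.15 (SE 0.47) without passing. Of 6 measured keratins listed with Krt1 and Krt10 as suprabasal or expressed in upper layers, 3 fell (Krt23, Krt80 and Krt78), Krt76 rose by 1.33 and 2 did not pass, Krt77 at 0.15 (SE 0.37) and Krt79 at 0.11 (SE 0.47). Krt76 was above the array median on 13 arrays. The list median was -0.49. Without the 12 arrays whose sex markers went against the label, none of these 6 was called higher and 3 were called lower.

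**Figure D2:**
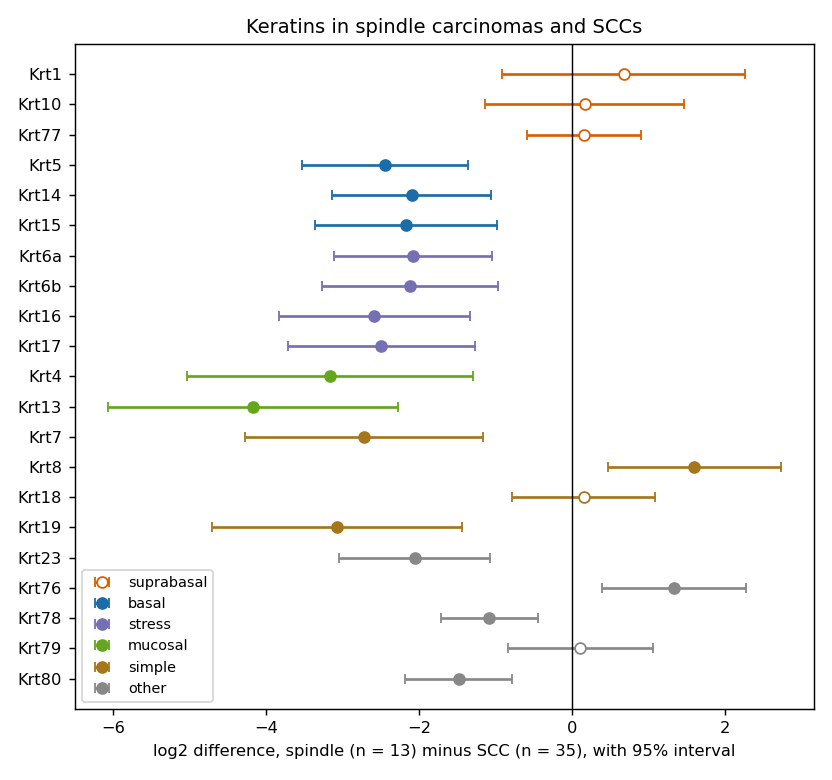
Log2 difference between spindle carcinomas (n = 13) and SCCs (n = 35) for selected keratins grouped by type, with 95% intervals. Filled symbols passed the threshold of adjusted p under 0.05 over all genes and open symbols did not. The intervals of Krt1 (-0.91 to 2.26) and Krt10 (-1.14 to 1.47) span 0, while basal, stress and mucosal keratins lie below it.

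Basal keratinocyte genes were lower as well. Of 10 measured genes of the basal layer list 9 fell and none rose, with a median of -1.94. They included Col17a1, the hemidesmosomal collagen (-2.49), Krt5 (-2.45, SE 0.54, limma adjusted p = 0.000925), Krt15 (-2.17) and Dst, which links keratin to the hemidesmosome (-2.14). Krt14 fell by 2.10 (SE 0.52, limma adjusted p = 0.00234). The count of lower genes was 7 of 10 without the 12 arrays of doubtful sex, and 10 of 10 without the 4 near-identical arrays.

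The unequal change of suprabasal and basal keratins was then tested as the difference of a pair of log2 values in each mouse. In this measure probe effects cancel between groups. The pairs use the same values as the differences given above and were chosen with earlier results of these data known. Their tests are therefore not separate support. Krt1 minus Krt5 was -1.82 ± 2.34 (SD) in spindle carcinomas and -4.94 ± 2.71 in SCCs. The difference of 3.12 (SE 0.79) passed a two-sided permutation test with 100000 resamples (p = 0.00068, adjusted p = 0.00408 over 6 comparisons). By this measure 10 of 13 spindle mice lay above the SCC median. Krt10 minus Krt14 was -2.14 ± 2.08 and -4.40 ± 2.27, a difference of 2.26 (SE 0.69, permutation adjusted p = 0.00936, 10 of 13 mice). The partners did not differ detectably from one another: Krt10 minus Krt1 differed by -0.51 (SE 0.31, permutation adjusted p = 0.284). Relative to the basal keratins, the suprabasal pair was thus higher in spindle carcinomas, where Krt5 and Krt14 themselves were called lower and Krt1 and Krt10 were not called.

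Genes of the upper layers fell into those that were lower in spindle carcinomas and those that, like Krt1 and Krt10, did not pass. In the spinous layer list, 6 of 10 genes fell and 4 did not pass, with a median of -1.64. Dmkn (dermokine, -2.39), Calml3 (-2.38), Sbsn (suprabasin, -2.29) and Krtdap (keratinocyte differentiation-associated protein, -2.25) were lower, as was the desmosomal cadherin Dsg1b (-1.26, SE 0.30). Other desmosomal cadherins of the list, Dsc1 (-0.66, SE 0.63) and Dsg1a (-0.76, SE 0.35), did not pass. In the list for the granular layer and cornified envelope, 18 of 33 genes fell, none rose and 15 did not pass, with a median of -1.19. Cnfn (cornifelin, -3.65), Lce3a (-3.33), Cers3, a ceramide synthase (-2.97), and Spink5, an inhibitor of epidermal proteases (-2.96), were lower. Lor (-0.27, SE 0.46), Hrnr (-0.15, SE 0.60) and Lce1c (-0.24, SE 0.62) did not pass. The LCE family was thus split, with Lce3a called lower and all 4 listed Lce1 genes not called, from -0.62 (Lce1a1) to -0.24 (Lce1c).

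Regulators of epidermal differentiation were described in the same comparison. Of 36 measured, 19 fell, 1 rose and 16 did not pass, with a median of -0.55. Trp63, the transcription factor required for stratified epithelium (-2.71), the ETS factor Ehf (-2.43), the grainyhead-like factor Grhl3 (-2.31) and the zinc finger factor Ovol1 (-2.07) fell. Rbpj, the DNA-binding partner of Notch, was the one that rose (0.77). Krt1 and Krt10 were thus not called in the comparison in which Trp63 and the basal keratins were called lower.

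Other cell types were followed through markers in the same comparison, in which 26.5% of 12791 genes passed, 1985 higher and 1406 lower. The short marker lists were not tested against that share. Of 6 fibroblast genes 2 rose, Pdgfra by 1.69 and Dcn by 1.17, and 4 did not pass. The mean log2 level of the fibroblast list ran from 10.64 to 12.63 in spindle carcinomas and from 9.55 to 13.0 in SCCs. Neither of the 2 measured sebaceous gland markers and none of the 6 striated muscle markers passed, and 1 of 6 hair follicle markers, Tchh, fell by 1.37. Of 3 measured adipocyte markers 2 fell, Fabp4 (-1.57) and Lipe (-0.85), of 5 macrophage markers C1qa rose (0.75), and of 4 measured T cell markers Cd8a fell (-0.25). No marker of endothelium or melanocytes passed. The part of these cells in the Krt1 and Krt10 result was not tested.

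The grades of SCC were compared next, to ask whether the pair followed loss of differentiation. The means of both genes were lower at each step of grade, but no step passed the test over all genes. From well to moderately differentiated tumors the difference was -0.92 for Krt1 (SE 0.95, limma adjusted p = 1.00) and -1.21 for Krt10 (SE 0.74, limma adjusted p = 1.00). From moderately to poorly differentiated tumors it was -0.87 for Krt1 (SE 1.05, limma adjusted p = 0.812) and -1.07 for Krt10 (SE 0.82, limma adjusted p = 0.686). Neighboring grades thus did not differ detectably. In each of these comparisons 0% of genes passed in limma, with 303 and 1084 at an unadjusted p under 0.05.

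Between the extremes of grade the differences were larger. Krt10 was 2.28 lower in poorly than in well differentiated tumors on the log2 scale (difference -2.28, SE 0.82, 95% interval -3.92 to -0.63). Its unadjusted limma p was 0.0077 and its adjusted p 0.825. Krt1 was 1.80 lower (difference -1.80, SE 1.05, interval -3.90 to 0.31, limma adjusted p = 0.906). For both genes 7 of 9 poorly differentiated tumors lay under the well differentiated median. Again 0% of genes passed in limma, with 704 at an unadjusted p under 0.05. By size of the difference, 0.0235% of all genes exceeded Krt10 and 0.149% exceeded Krt1. Such shares were not particular to this comparison. They were 0.0704% and 0.258% from well to moderately differentiated tumors. Between the papilloma resistant and sensitive mice described below they were 0.352% and 0.289%. Between spindle carcinomas and SCCs they were 53.6% and 11.1%.

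In the within-mouse measure, Krt10 minus Krt14 was -5.64 ± 2.46 (SD, n = 9) in poorly and -3.12 ± 1.898 (n = 13) in well differentiated tumors. The difference of -2.52 (SE 0.98) passed an exact permutation test over 497420 regroupings (p = 0.0152, adjusted p = 0.0304 over 6 comparisons), with 7 of 9 poorly differentiated tumors not above the well differentiated median. It rested in part on the doubtful arrays: without those whose sex markers went against the label it was -1.62 (exact permutation adjusted p = 0.365), and without the 4 near-identical arrays -3.21 (adjusted p = 0.00437). Krt1 minus Krt5 differed by -2.08 (SE 1.28, exact permutation adjusted p = 0.161), which became -2.85 (adjusted p = 0.0413) without the near-identical arrays and -1.20 (adjusted p = 0.555) without the arrays of doubtful sex. Krt10 minus Krt1 differed by -0.48 (SE 0.59, exact permutation adjusted p = 0.51). These tests were adjusted over 6 comparisons, whereas that of Krt10 alone was adjusted over 12791 genes. Its unadjusted limma p was 0.0077, so the pass of Krt10 minus Krt14 is not stronger evidence than Krt10 itself.

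The epidermal lists held no called gene between poor and well differentiated SCCs. Their medians were -0.92 for the granular layer and cornified envelope, -0.64 for the spinous layer and 0.26 for the basal layer, beside 0.01 over all genes. The medians of stress keratins and regulators were 0.09 and -0.01. The pair of mucosal keratins had a median of -2.22, with Krt4 at -2.58 (SE 1.21) and Krt13 at -1.86 (SE 1.25), sizes like those of Krt1 (-1.80) and Krt10 (-2.28). No list was tested.

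Spindle carcinomas were also set beside the ends of the SCC scale. Against poorly differentiated SCCs, Krt1 was 1.67 higher (SE 1.05, limma adjusted p = 0.397) and Krt10 was 1.41 higher (SE 0.82, limma adjusted p = 0.355), and 11 of 13 spindle mice lay above the poorly differentiated median for each gene. Neither passed, and 0.0235% of all genes did. Against well differentiated SCCs the differences were -0.13 for Krt1 (SE 0.95, limma adjusted p = 0.944) and -0.87 for Krt10 (SE 0.74, limma adjusted p = 0.446), where 17.8% of all genes passed. For both genes the order of the means was well, spindle, moderate, without histology and poor. Of the neighbors in this order, well and spindle were tested against each other and did not differ detectably.

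Krt1 and Krt10 moved together across tumors. Over 55 mice Pearson's r was 0.865 and Spearman's rho 0.844, both with a two-sided permutation p of 1e-05, the smallest that 100000 resamples can give, and r was 0.858 without the 2 mice farthest from the Krt1 median. Within spindle carcinomas r was 0.960 (rho 0.923, n = 13, permutation p = 1e-05) and within SCCs 0.826 (rho 0.770, n = 35, permutation p = 1e-05). Within poorly differentiated SCCs it was 0.969 (n = 9, exact permutation p = 9.6e-05) and within moderately differentiated ones 0.805 (n = 13, permutation p = 0.00092). In tumors without histology it was 0.940 (n = 7, exact permutation p = 0.00218). Over the 7 sets of mice examined, the adjusted p of r was at most 0.00563.

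In well differentiated SCCs the relation was not stable. There r was 0.753 (n = 13, permutation p = 0.00563) but rho was 0.473 (permutation p = 0.106), and r dropped to 0.207 without the 2 mice farthest from the Krt1 median, so it rested on those mice. SCC 11 was the most discordant, with Krt1 at 5.18 and Krt10 at 11.10, near the low end of the first gene and the high end of the second. SCC 15 had the lowest Krt1 of all arrays (3.05) with Krt10 at 6.46. In spindle 14 both were low, at 3.63 and 5.44.

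**Figure D3:**
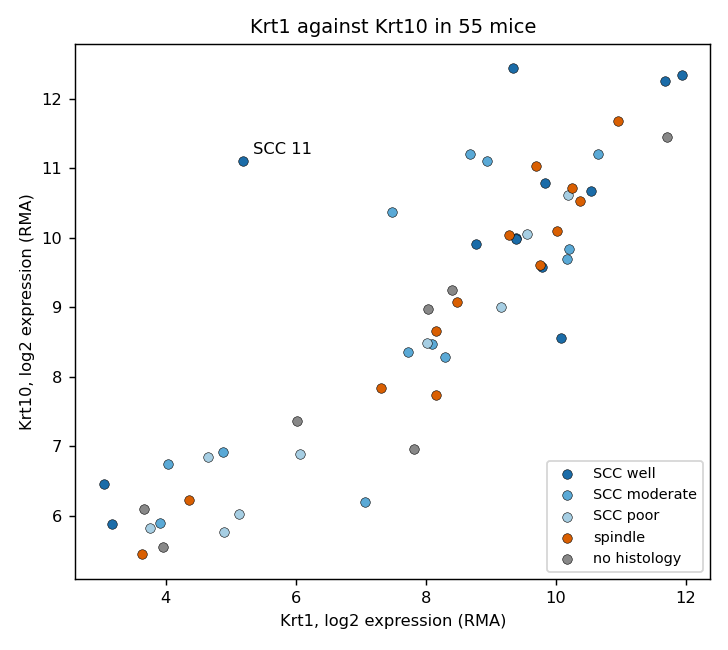
Krt10 against Krt1 in log2 expression (RMA), with 1 point per mouse (n = 55) colored by class. The points follow 1 rising band (r = 0.865) that holds both spindle carcinomas and SCCs, with SCC 11 (5.18 and 11.10) above it.

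Tumors of the same mouse could be alike or far apart. In 5 mice with 2 carcinomas each, the absolute difference in Krt1 was 0.77 (SCC 3 and 4), 4.20 (SCC 7 and 8), 0.67 (spindle 8 and 9), 4.32 (SCC 22 and 23) and 0.27 (no histology 6 and 7). The corresponding Krt10 differences were 0.64, 2.96, 0.71, 3.62 and 1.19. The median difference between mice was 2.33 for Krt1 and 2.13 for Krt10, so 3 pairs were closer than that and 2 were farther apart for both genes. SCC 22 is one of the near-identical arrays. In their titles SCC 3 and 4 share a first tumor number, as do no histology 6 and 7, unlike the other pairs, so whether these are separate tumors or samples of a single one was not settled by the labels.

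The genes most like Krt1 over the 55 mice, by Pearson's r among 12790 other genes, were largely components of the cornified envelope. They were Lce1c (0.880), Dsc1 (desmocollin 1, 0.872), Hrnr (0.865), Lce1f (0.843), Lce1b (0.843), Lce1i (0.824), Rnase2b, a ribonuclease-family gene (0.822), Lce1a1 (0.812), Lce1a2 (0.807) and Wfdc12, a secreted protease inhibitor family member (0.803). Those most like Krt10 were Lor (0.884), Sdr16c6 (0.850), Dsc1 (0.836), Wfdc12 (0.818), Lce1c (0.816), Sdr16c5 (0.800), Them5 (0.789), Lce1i (0.788), Hrnr (0.775) and Dsg1a (desmoglein 1, 0.773). Sdr16c5 and Sdr16c6 belong to a family of dehydrogenases that act on retinoids, and Them5 is a thioesterase of lipid metabolism. The sets of 10 shared 5 genes. Krt10 ranked 3 among all genes by likeness to Krt1, and Krt1 ranked 2 by likeness to Krt10. The Lce1 genes are close paralogs, so their probe sets may share signal. These correlations describe bulk tumors that share array and tissue composition and are given with no test.

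Only a small set of genes followed the pair closely: r was over 0.7 with Krt1 for 23 genes and with Krt10 for 24, and over 0.5 for 58 and 63. Because these genes were chosen for their correlation with Krt1 or Krt10 over the same mice, their differences between groups follow in part from that choice and are given as a description. Between spindle carcinomas and SCCs they ran from -0.66 to 0.34 for the genes like Krt1 (median -0.37) and from -0.76 to 0.08 for the genes like Krt10 (median -0.38). Between poorly and well differentiated SCCs the differences of both sets ran from -1.96 to -0.96. The genes most opposite to Krt1 reached only -0.432 (Ess2), -0.430 (Apip), -0.428 (Lta4h), -0.425 (Nans) and -0.413 (Ccpg1os). Those most opposite to Krt10 were Irf1 (-0.533), Gbp2 (-0.493), Pnp (-0.480), Rarb (-0.472) and Parp9 (-0.462). Irf1, Gbp2 and Parp9 are interferon-induced genes.

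**Figure D4:**
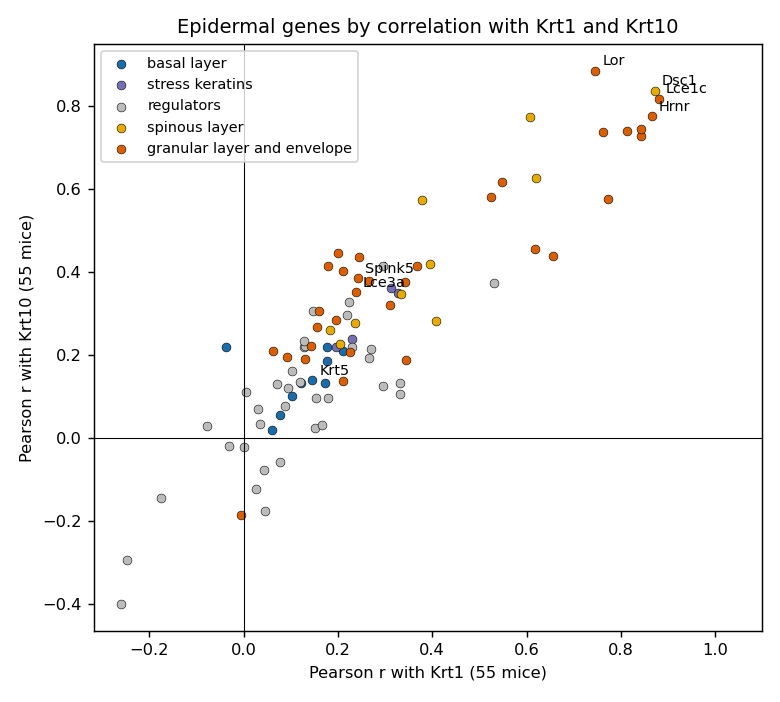
Pearson's r with Krt1 and with Krt10 over 55 mice for each measured gene of 5 epidermal lists, colored by list. Lor, Dsc1, Lce1c and Hrnr lie at the upper right (r from 0.745 to 0.884), whereas basal genes such as Krt5 (0.145 and 0.139) and the envelope genes Spink5 and Lce3a lie nearer to 0.

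The mean level of each gene list was then correlated with the pair, an addition made after the data were seen, with adjustment over 34 relations. The granular and cornified list gave r = 0.552 with Krt1 and 0.590 with Krt10 (rho 0.525 and 0.570), and the spinous list 0.50 and 0.535 (rho 0.464 and 0.533), all with permutation adjusted p of at most 0.000425. The other suprabasal keratins gave 0.509 and 0.570 (rho 0.488 and 0.576). The basal layer list gave 0.128 and 0.155 (rho 0.192 and 0.258, permutation adjusted p = 0.482 and 0.423). The stress keratins gave 0.273 and 0.300 (permutation adjusted p = 0.124 and 0.0787) and the regulators 0.193 and 0.195 (both 0.267), although by rho these passed, at 0.344 and 0.385 for the stress keratins and 0.351 and 0.329 for the regulators. Among single regulators, Pou3f1 had r of 0.531 and 0.372, Klf4 0.296 and 0.414, and Casz1 -0.26 and -0.4. Without the 2 farthest mice, r was 0.477 and 0.534 for the granular list and 0.386 and 0.464 for the spinous list. It was 0.061 and 0.138 for the stress keratins, 0.054 and 0.075 for the regulators and -0.077 and -0.014 for the basal list. These last values of r thus rested on few mice. The values of rho, which passed for the stress keratins and the regulators, were not recomputed without those mice.

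Markers of skin appendages moved with the pair as well. The 2 measured sebaceous markers of 5 listed, Elovl3 and Scd3, gave a list r of 0.694 with Krt1 and 0.612 with Krt10 (rho 0.708 and 0.561, permutation adjusted p = 0.000113 for both values of r). Elovl3 alone gave 0.694 and 0.608 and Scd3 0.420 and 0.378, and Mc5r, another listed marker, was above the median on no array. The mean level of this list ran from 3.56 to 7.9 in well, 4.0 to 6.83 in moderately and 3.75 to 5.71 in poorly differentiated SCCs, from 3.93 to 6.52 in spindle carcinomas and from 3.89 to 7.46 in tumors without histology. The 6 measured hair follicle markers of 8 gave 0.467 and 0.454 (rho 0.449 and 0.419, permutation adjusted p = 0.000944 and 0.00105). Their mean level ran from 3.72 to 6.57, 3.52 to 8.52 and 3.64 to 5.33 in the 3 grades, 3.48 to 6.46 in spindle carcinomas and 3.86 to 7.18 in tumors without histology. The part of appendage tissue in the levels of Krt1 and Krt10 was not tested.

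Lists for fibroblasts, striated muscle, adipocytes, macrophages, T cells and endothelium did not pass with either gene, with r from -0.246 (macrophages with Krt10) to 0.141 (adipocytes with Krt10). The melanocyte list gave 0.235 and 0.227 (permutation adjusted p = 0.195 and 0.2; rho passed with Krt1, at 0.374). RNA quality, taken as the 3′ minus 5′ difference of control probe sets, did not pass either: r with Krt1 was 0.184 for Gapdh and 0.245 for Actb, and with Krt10 -0.01 and 0.04 (permutation adjusted p from 0.276 to 0.941).

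Neighbors in the keratin clusters varied in their likeness to the pair. Next to Krt1, r was 0.677 for Krt77, another suprabasal type II keratin, but 0.027 for Krt76 and -0.068 for Krt4. Krt76 was above the array median on 13 arrays. On the other side Krt72 and Krt73, keratins of the inner root sheath of the hair, gave 0.404 and 0.384, and Krt2 was not measured above the filter, being above the median on 0 arrays. Next to Krt10, Krt12, the corneal keratin, gave 0.339, Krt20 0.211 and Krt23 0.089, Krt27 of the inner root sheath gave 0.382, and Krt26 and Krt28 were above the median on only 4 and 3 arrays.

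The p53 label did not separate the pair. Krt1 was 7.87 ± 2.23 (SD, n = 14) in mice with p53 mutant tumors, from 4.36 through 8.09 to 10.64, and 7.89 ± 2.65 (n = 41) in the rest, from 3.05 through 8.47 to 11.93. The difference was -0.01 (SE 0.77, limma adjusted p = 0.997). Krt10 was 8.81 ± 2.04 and 8.90 ± 2.08, a difference of -0.09 (SE 0.63, limma adjusted p = 0.980). Of all genes 0.281% passed. Within SCCs the differences were 0.27 for Krt1 (SE 1.02, limma adjusted p = 0.964) and 0.11 for Krt10 (SE 0.83, limma adjusted p = 0.981), with 0.109% of genes passing. The test of whether the p53 difference depended on histology gave -1.0 for Krt1 (SE 1.79) and -0.80 for Krt10 (SE 1.47, limma adjusted p = 0.935 for both), with 0% of genes called in limma and 797 at an unadjusted p under 0.05. These differences depended on the setting. With grade as a covariate, those within SCCs were 1.26 for Krt1 (limma adjusted p = 0.766) and 1.28 for Krt10 (limma adjusted p = 0.664), and without the arrays of doubtful sex 0.19 and -0.46. Over all mice they were 0.22 and -0.24 without those arrays.

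Lymph node status likewise gave no call. Krt1 was 8.30 ± 2.41 (SD, n = 15) in node positive and 7.92 ± 2.65 (n = 19) in node negative mice, a difference of 0.38 (SE 0.85, limma adjusted p = 0.954). Krt10 was 8.88 ± 1.83 and 8.97 ± 2.17, a difference of -0.09 (SE 0.67, limma adjusted p = 0.991). Within SCCs the differences were 0.79 (SE 1.02, limma adjusted p = 0.804) and 0.08 (SE 0.82, limma adjusted p = 0.984). Without the arrays of doubtful sex the difference in Krt1 was 1.02 over all mice (limma adjusted p = 1.00) and 1.27 within SCCs (limma adjusted p = 0.884), and that in Krt10 was 0.28 and 0.34. With the origin label as a covariate the differences within SCCs were 1.76 for Krt1 (limma adjusted p = 0.618) and 0.65 for Krt10 (limma adjusted p = 0.829). The interaction with histology was -1.53 for Krt1 (SE 2.00, limma adjusted p = 0.875) and -0.71 for Krt10 (SE 1.60, limma adjusted p = 0.942), and -0.89 and -0.25 without the arrays of doubtful sex. In all 3 node comparisons 0% of genes passed in limma, with 533, 1282 and 936 at an unadjusted p under 0.05. The 21 mice with no nodal label had Krt1 from 3.05 through 8.15 to 11.71 and Krt10 from 5.55 through 8.97 to 12.44.

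The last comparison asked whether carcinomas of mice that had grown few papillomas differed from those of mice that had grown many. Krt1 was 7.59 ± 2.14 (SD, n = 17) in resistant mice (fewer than 2 papillomas at 20 weeks), from 3.91 through 8.03 to 10.37. In sensitive mice (more than 7) it was 8.74 ± 2.55 (n = 16), from 3.05 through 9.61 to 11.93. The difference was -1.15 (SE 0.78, 95% interval -2.74 to 0.44, limma adjusted p = 0.702). Krt10 was 8.64 ± 1.83, from 5.55 through 8.97 to 12.44, and 9.72 ± 2.09, from 5.77 through 10.36 to 12.35, a difference of -1.09 (SE 0.65, interval -2.42 to 0.24, limma adjusted p = 0.681). For both genes 14 of 17 resistant mice lay under the sensitive median, but 0% of all genes passed in limma, with 1055 at an unadjusted p under 0.05. Mice between these classes did not lie between them: their means were 7.49 for Krt1 and 8.44 for Krt10 (n = 22). Tumors with p53 mutation were more frequent in resistant than in sensitive mice. With the p53 label as a covariate the differences between resistant and sensitive mice were -1.547 for Krt1 and -1.325 for Krt10. They were -0.788 and -0.738 with origin as a covariate, and -1.395 and -1.236 with classes set at 24 weeks. None of these passed.

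Taken as a number, papillomas at 20 weeks gave r = 0.02 (rho 0.180) with Krt1 and 0.07 (rho 0.205) with Krt10 over 55 mice, and none of the 6 relations with papilloma number at 20 or 24 weeks or with weeks to first papilloma passed (permutation adjusted p = 0.890 for each r and at least 0.439 for each rho). The values depended on few mice: without the 2 mice farthest from the median number, r was 0.232 and 0.242. Within 35 SCC mice r was 0.00 and 0.10, and 0.437 and 0.497 without the 2 farthest mice.

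**Figure D5:**
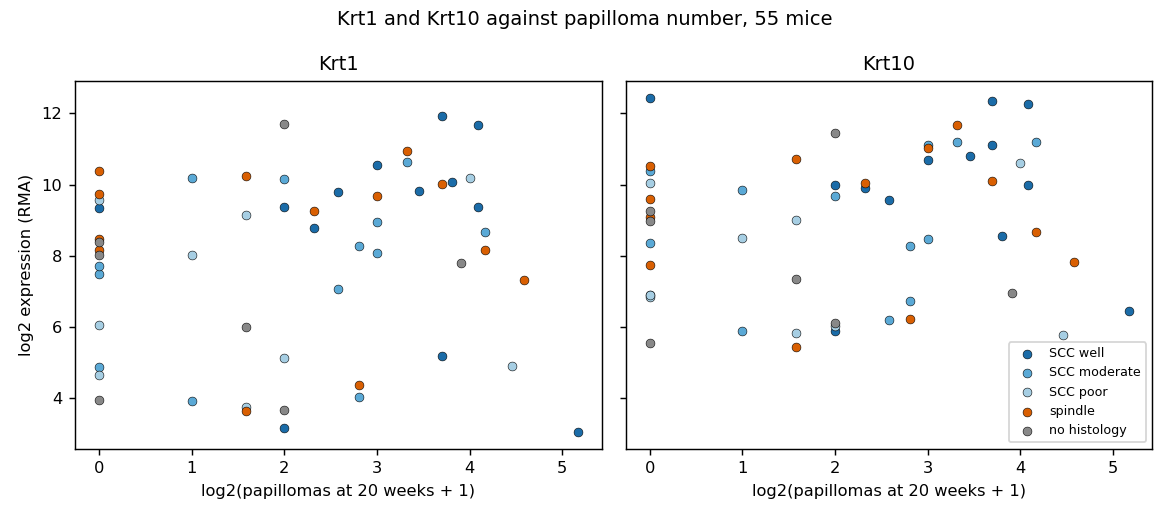
Log2 expression (RMA) of Krt1 and Krt10 against papilloma number at 20 weeks on a log2(number + 1) axis, 1 point per mouse (n = 55) colored by class. At 0 papillomas Krt1 and Krt10 were high in some mice and low in others, the 3 mice with the most papillomas (35, 23 and 21) had Krt1 of 3.05, 7.31 and 4.90 and Krt10 of 6.46, 7.83 and 5.77, all below the medians of 8.40 and 9.08, and r with the number itself was 0.02 and 0.07.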

How the data were processed

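Gene expression was measured in 60 carcinomas of 55 mice on Affymetrix 3′ mouse arrays. The authors deposited 1 log2 value for each probe set, computed by RMA (background correction, quantile normalisation over arrays and a summary of each set's probes). The version and the build are not given in the sources used here. Differences are therefore relative to the array as a whole, and the number of mice limits the precision. Of 45101 probe sets, 34958 had 1 symbol, 932 several and 9211 none in the platform annotation, and 34754 were matched to RefSeq names (GRCm38.p6). The probe set of highest mean stood for a gene (18194 genes), and tests ran across all genes that exceeded the array median 8 times or more (12791).

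Groups came from the labels, tumors of 1 mouse were averaged, and groups were compared with limma 3.58.1 (lmFit, eBayes; R 4.3.3), a call being an adjusted p (Benjamini-Hochberg) under 0.05. The grades and spindle carcinomas shared 1 model. Correlations and within-mouse keratin differences were tested by two-sided permutation (100000 resamples, or exact under 10 mice) with scipy 1.17.1, numpy 2.4.6 and pandas 2.3.3 in Python 3.11.15, and figures drawn with matplotlib 3.10.9 and tables handled with data.table (version 1.17.8). The scripts were tested on simulated data.

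Members, gene lists and tests were chosen with earlier results of these data known. Genes were named by rule: the 10 most and 5 least like each member, 3 neighbors on each side, and up to 4 largest differences per list among those that passed. Genes named outside that rule as contrasts or as single regulators (Krt18, Krt77, Krt79, the Lce1 genes, Dsg1b, Pou3f1, Klf4 and Casz1) were picked after their values were seen. Promoter sequences came from RefSeq tables of GRCm38.p6. Alternatives covered the filter, normalisation, probe set choice, eBayes options, covariates, tumors per mouse, papilloma classes and doubtful arrays.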

Additional observations from a re-analysis of the deposited data

Results flagged for a closer look

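Krt1 in spindle 14 (3.63) lay apart from the other mice in 2 overlapping groups, the 9 spindle carcinomas without p53 mutation and the 5 node negative spindle carcinomas, where its gap to the next lowest mouse exceeded Dixon's 95% limit. Krt10 in the same tumor was 5.44, the lowest of all mice, but was not apart by this measure. Chance puts about 1 in 20 groups past this limit, and 8 groups of 4 to 10 mice were examined for both genes (16 tests, which are not independent because the groups overlap and the genes move together).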

How the results depend on the processing

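None of the 26 fitted differences passed the threshold in any of 338 refits with another setting, where the lowest limma adjusted p was 0.234. Over all 39 results, 354 of 372 alternative values kept their direction and their side of the threshold. That count includes settings that could not change a fitted difference. Each gene had 1 probe set, so averaging probe sets left its values as they were. The filters and eBayes options could alter only its SE and p. Without the 12 arrays of doubtful sex, the sign turned for the p53 difference of Krt1 (0.22), that of Krt10 within SCCs (-0.46), both p53 interactions (0.22 for Krt1 and 0.49 for Krt10), the node difference of Krt10 (0.28), and r of Krt1 with papillomas at 20 weeks (-0.0594) and 24 weeks (-0.0352), and Krt10 minus Krt14 between poor and well differentiated SCCs no longer passed (-1.62). Without the 4 near-identical arrays, chosen after seeing the data, the p53 differences became 0.14 for Krt1 and 0.026 for Krt10, and Krt1 minus Krt5 between poor and well differentiated SCCs passed (-2.85). With origin as a covariate the p53 difference of Krt1 was 0.002 and the node difference of Krt10 0.21. Krt10 between spindle carcinomas and SCCs was -0.035 with every tumor and mouse as a random effect and -0.10 with the tumor_class covariate. Leaving out 1 mouse of a small group at a time, the p53 interaction ran from -1.59 to 0.21 for Krt1 and from -1.59 to 0.01 for Krt10, and the node interaction from -2.72 to -0.42 and from -1.81 to 0.009; each turn of sign came without the mouse of spindle 8 and 9. The cause of these changes was not tested. No paired analysis was possible because replicate numbers only name mice and do not pair them across groups.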
